A study of Mus musculus with 10 samples.

Results

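Transcription factor genes that pattern the dorsal telencephalon, the sheet of neural tissue that becomes the cerebral cortex, were followed in embryonic mouse cortex. They were Pax6, Emx1, Emx2, Lhx2, Nr2f1, Nr2f2, Nr2e1, Sp8 and Dmrta1. The genes were taken by name through the gene numbers deposited with the probe sets, and all 9 were measured among 20405 genes. Total RNA came from Magoh mutant embryos, labelled as heterozygous for the Mos2 allele (5 arrays), and from wild-type C57BL/6 embryos (5 arrays), both at E10.5. The labels give C57BL/6 as the background of both groups. Each array held the pair of cortices of 1 embryo, labelled from 300 ng of RNA and hybridised to a whole-transcript Affymetrix GeneChip 1.0 ST array. Litters were not given, so the p-values measure the spread between these embryos.

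Magoh is a core subunit of the exon junction complex, which marks spliced mRNA and takes part in its transport, translation and decay. The 9 factors act in the progenitors of the cortical wall. Pax6 is highest rostrally and laterally and Emx2 highest caudally and medially, and in mouse the 2 opposed gradients help to set where cortical areas form. Lhx2 is a selector gene that keeps progenitors cortical rather than hem or antihem, the signalling borders of the cortex. Nr2f1 and Nr2f2, also called COUP-TFI and COUP-TFII, are orphan nuclear receptors enriched caudally, Sp8 is a zinc finger factor of the rostromedial cortex near the Fgf8 source, Nr2e1 (Tlx) is a nuclear receptor that maintains progenitors, and Dmrta1 is a DM-domain factor of dorsal progenitors.

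Levels are log2 RMA values, on which 1 unit is a doubling. Differences are Magoh mutant minus wild type, spreads are SD over n = 5 arrays, and intervals are 95% intervals of the limma fit. Magoh itself was 10.21 ± 0.18 in mutants and 11.05 ± 0.09 in wild type, a difference of -0.84 (limma, adjusted p = 8.5e-05), so its level followed the labels. As a guide to background, 8.57 is used here, the mean over arrays of the 95th percentile of negative controls. Mutant arrays varied more than wild-type arrays, with a median SD over all genes of 0.135 in mutants and 0.0919 in wild type. Mutant arrays 1 and 5 stood furthest from the others of their genotype, with mean correlations of 0.990 and 0.993. Mutant arrays 2, 3 and 4 each had 0.994, so array 5 was little apart. The array weights of 1 and 5 were 0.254 and 0.411, against 0.914 to 2.13 on the other 8 arrays. These weights reflect how far each array departs from its genotype mean in these same values. Magoh was lowered on both, at -0.74 on mutant array 1 and -1.13 on mutant array 5 relative to the wild-type mean. In bulk tissue, fewer cells of a type and less RNA per cell cannot be told apart.

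The sequences just upstream and downstream of the annotated start are shown for the 4 factors with the lowest differences, Emx1, Lhx2, Nr2e1 and Emx2. Their shared sign follows from that choice, and none of the 4 passed the test given below. Dmrta1, which also had a negative difference, is not printed. The sequences are RefSeq windows of GRCm38.p6, from 250 bases before to 50 bases after the start, written 5′ to 3′ on the strand of the gene. Lhx2 has a second annotated start, which is not printed. Capitals mark matches on either strand to TAAT (the core bound by many homeodomain proteins), TAATTA (which holds TAAT on both strands), AGGTCA (the half-site of many nuclear receptors) and GGGCGG (the GC box of Sp-type zinc fingers). The windows lie at chr6:85187681-85187980 (plus strand) for Emx1, chr2:38339031-38339330 (plus) for Lhx2, chr10:42583541-42583840 (minus) for Nr2e1 and chr19:59458440-59458739 (plus) for Emx2.
Emx1: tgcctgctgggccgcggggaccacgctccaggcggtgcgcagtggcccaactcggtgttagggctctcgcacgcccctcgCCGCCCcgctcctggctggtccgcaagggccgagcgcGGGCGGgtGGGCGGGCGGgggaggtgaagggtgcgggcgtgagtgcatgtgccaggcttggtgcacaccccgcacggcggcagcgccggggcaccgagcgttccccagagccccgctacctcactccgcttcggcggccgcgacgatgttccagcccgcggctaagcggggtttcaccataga
Lhx2: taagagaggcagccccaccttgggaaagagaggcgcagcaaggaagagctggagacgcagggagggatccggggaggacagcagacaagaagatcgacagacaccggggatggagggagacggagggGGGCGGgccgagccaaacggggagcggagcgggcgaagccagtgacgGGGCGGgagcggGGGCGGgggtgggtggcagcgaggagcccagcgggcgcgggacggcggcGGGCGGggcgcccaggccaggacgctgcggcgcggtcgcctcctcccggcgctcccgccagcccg
Nr2e1: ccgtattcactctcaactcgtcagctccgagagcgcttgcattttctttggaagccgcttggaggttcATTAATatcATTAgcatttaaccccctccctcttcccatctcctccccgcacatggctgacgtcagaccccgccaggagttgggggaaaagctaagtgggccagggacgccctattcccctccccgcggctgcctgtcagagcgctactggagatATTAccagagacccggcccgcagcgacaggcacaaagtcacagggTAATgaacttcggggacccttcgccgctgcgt
Emx2: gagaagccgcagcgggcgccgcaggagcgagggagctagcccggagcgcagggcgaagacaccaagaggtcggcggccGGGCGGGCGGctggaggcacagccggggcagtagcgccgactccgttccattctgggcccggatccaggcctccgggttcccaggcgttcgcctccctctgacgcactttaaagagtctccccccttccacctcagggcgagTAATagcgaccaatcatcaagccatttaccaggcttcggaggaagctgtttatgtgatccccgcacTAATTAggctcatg

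The 4 windows did not share a motif. Emx1 and Lhx2 each held 4 matches to GGGCGG, some of them overlapping in Emx1, and 0 to TAAT. Nr2e1 held 5 matches to TAAT and 0 to GGGCGG. Emx2 held both, with 3 matches to TAAT, of which TAATTA supplies 2, and 2 overlapping matches to GGGCGG. None of the 4 held AGGTCA. Of the 14 windows of the 9 factors, GGGCGG was found in 6, TAAT in 8, TAATTA in 2 (of Emx2 and Sp8) and AGGTCA in 1 (of Sp8). Counted in the same way, GGGCGG was present in 35.7%, TAAT in 58.0%, TAATTA in 5.29% and AGGTCA in 16.3% of 32851 windows of all genes. A match is a description of the letters in the window, not evidence of binding.

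No factor of the 9 passed the test. In limma, 0 rose and 0 fell, against 117 of all genes (0.573%) called at an adjusted p under 0.05. At an unadjusted p under 0.05, the threshold for every count given before adjustment, 3 of the 9 were lower in mutants (Nr2e1, Emx1 and Emx2) and 0 higher, against 4.68% of all genes lower, 4.57% higher and 9.25% either way. Of the 9, 5 had a difference below 0, as had 49.0% of all genes. The median difference of the 9 was -0.07, against 0.00 over all genes, and the single differences ran between -0.27 and 0.10. All 9 overlapped between the genotypes, as did all but 2.82% of all genes (1.39% without overlap and lower in mutants, 1.43% without overlap and higher). The lowest bound of any interval was -0.51, for Emx1, and the highest was 0.31, for Nr2f2.

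**Figure D1:**
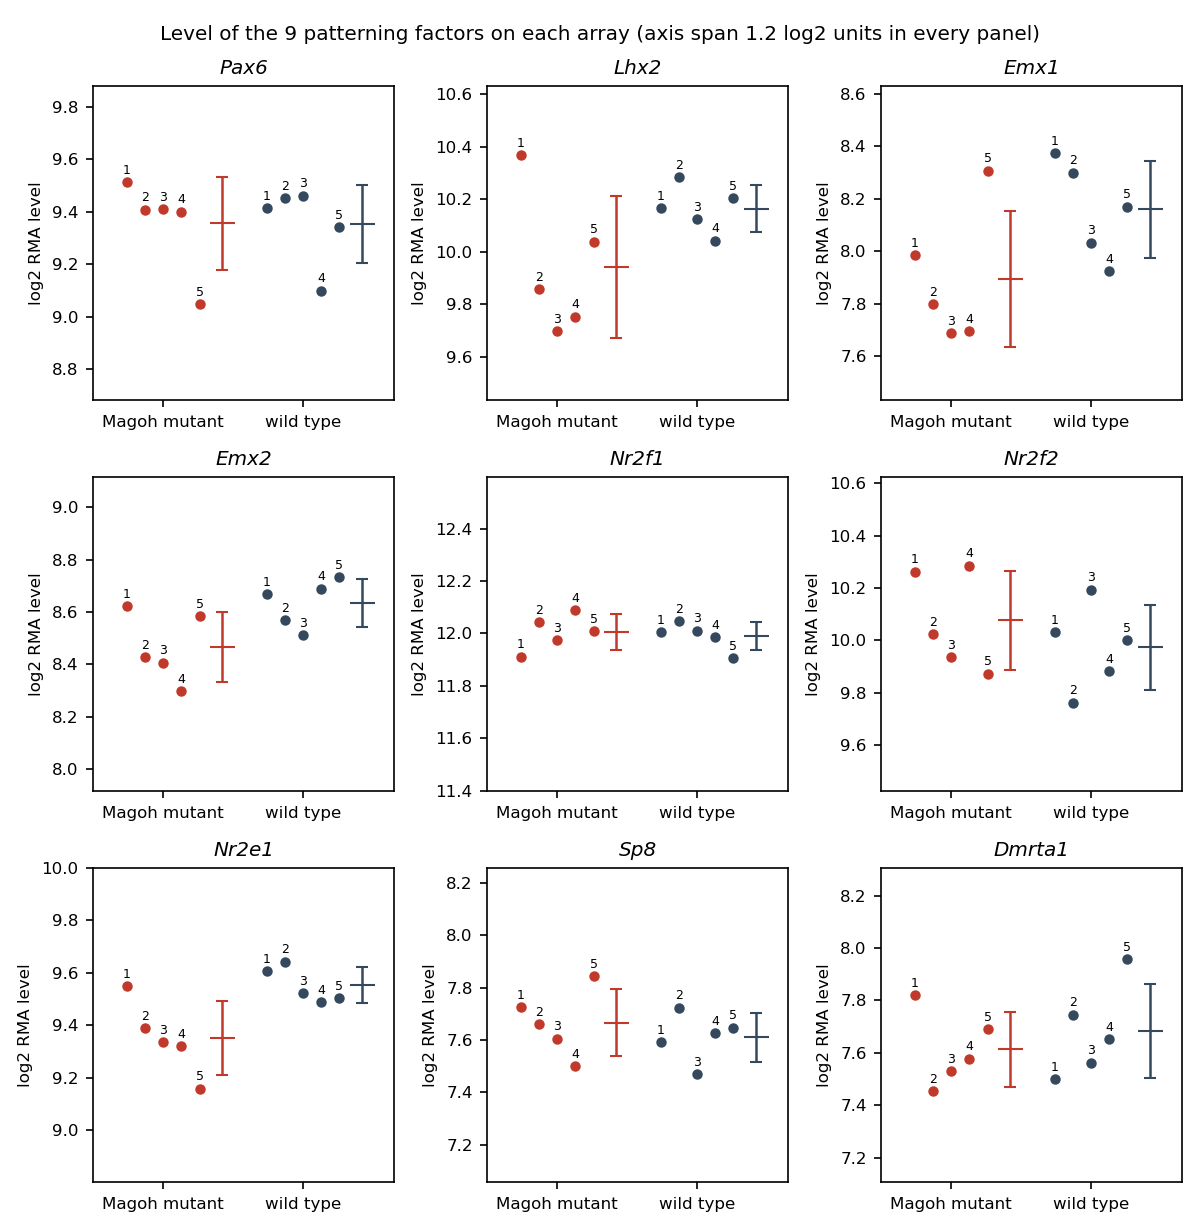
Log2 RMA level of each factor on each array, Magoh mutant left and wild type right, with the array number above each point and the mean ± SD (n = 5) beside it. The groups overlap in every panel, and mutant arrays 2, 3 and 4 lie below all wild-type arrays for Lhx2, Emx1, Emx2 and Nr2e1.

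Among the homeodomain factors, Pax6 had the smallest difference. It read 9.51, 9.41, 9.41, 9.40 and 9.05 on mutant arrays 1 to 5, against 9.41, 9.45, 9.46, 9.10 and 9.34 on wild-type arrays 1 to 5. Each genotype had 1 low array, mutant 5 and wild-type 4, and the rest lay close together. The difference was 0.00 (interval -0.19 to 0.20; limma, adjusted p = 0.997), a ratio of 1.00 with an interval of 0.875 to 1.15. Its sign turned with several arrays left out, so no direction can be given.

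Lhx2 was lower on most mutant arrays. Its level was 10.37, 9.86, 9.70, 9.75 and 10.04 on mutant arrays 1 to 5, against 10.17, 10.28, 10.13, 10.04 and 10.20 on wild-type arrays. Mutant arrays 2 to 5 lay below every wild-type array, array 5 only just, while mutant array 1 was the highest of all 10. The means were 9.94 ± 0.27 in mutants and 10.16 ± 0.09 in wild type, a difference of -0.22 (interval -0.45 to 0.00; limma, adjusted p = 0.547). Without mutant array 1 it was -0.33 (limma, adjusted p = 0.0611).

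The paralogs Emx1 and Emx2, homeodomain factors of dorsal progenitors, were both lower on average. Emx1 read 7.98, 7.80, 7.69, 7.70 and 8.31 on mutant arrays, against 8.37, 8.30, 8.03, 7.93 and 8.17 on wild-type arrays. Mutant array 5 lay within the upper wild-type range and arrays 2, 3 and 4 below it. The means were 7.89 ± 0.26 in mutants and 8.16 ± 0.19 in wild type, a difference of -0.27 (interval -0.51 to -0.02; limma, adjusted p = 0.487), the largest of the 9. Both lay below 8.57, so background can be part of the level and the size of the difference is approximate. Emx2 read 8.62, 8.43, 8.41, 8.30 and 8.58 on mutant arrays, against 8.67, 8.57, 8.51, 8.69 and 8.73 on wild-type arrays. All 5 mutant arrays lay below the wild-type mean of 8.63, and 3 of them below every wild-type array. The difference was -0.17 (interval -0.32 to -0.01; limma, adjusted p = 0.509), a ratio of 0.891, with the mutant mean below 8.57.

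The nuclear receptor Nr2e1, which holds progenitors in the dividing state, had the smallest p of the 9. Its level was 9.55, 9.39, 9.33, 9.32 and 9.16 on mutant arrays, against 9.61, 9.64, 9.52, 9.49 and 9.50 on wild-type arrays. All mutant arrays lay below the wild-type mean and 4 of 5 below every wild-type array, with mutant array 1 alone inside the wild-type range. The difference was -0.20 (interval -0.36 to -0.05), a ratio of 0.869, with an unadjusted p of 0.0144 and an adjusted p of 0.340 in limma. Its values with 1 array left out ran between -0.25 and -0.15, and none of them passed.

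Nr2f1 varied least between embryos. It read 11.91, 12.04, 11.98, 12.09 and 12.01 on mutant arrays, against 12.01, 12.05, 12.01, 11.98 and 11.90 on wild-type arrays. The SD was 0.07 in mutants and 0.05 in wild type, and the difference of 0.01 had the narrowest interval of the 9, -0.11 to 0.14 (limma, adjusted p = 0.967). A second probe set of the gene, dimmer at 9.40 ± 0.16 in mutants and 9.49 ± 0.14 in wild type, gave -0.09 (interval -0.27 to 0.10; limma over all probe sets, adjusted p = 0.859). The 2 probe sets differed in sign, and neither passed. Nr2f2, which marks caudal and ventral forebrain and is also known in veins and mesenchyme, read 10.26, 10.02, 9.94, 10.28 and 9.87 on mutant arrays, against 10.03, 9.76, 10.19, 9.88 and 10.001 on wild-type arrays. The groups were interleaved, except that mutant arrays 1 and 4 lay above all wild-type arrays, and the difference was 0.10 (interval -0.10 to 0.31; limma, adjusted p = 0.830).

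Sp8 and Dmrta1 were dim, with both means of each below 8.57. Sp8 read 7.72, 7.66, 7.61, 7.50 and 7.84 on mutant arrays, against 7.59, 7.72, 7.47, 7.63 and 7.65 on wild-type arrays. The groups overlapped over most of their range, with a difference of 0.06 (interval -0.10 to 0.21; limma, adjusted p = 0.887). Dmrta1 read 7.82, 7.45, 7.53, 7.58 and 7.69 on mutant arrays, against 7.50, 7.75, 7.56, 7.65 and 7.96 on wild-type arrays. Its difference was -0.07 (interval -0.26 to 0.12; limma, adjusted p = 0.885), and it was -0.00065 without wild-type array 5, the highest of the 10. Dmrta1 lies on chromosome 4, as does Magoh. Of the 93 tested genes between the 2, 0 rose and 0 fell in limma, where 0.573% of all genes were called. With so low a share, a count of 0 among 93 genes tells little. Dmrta2, Nfia, Hes5, Elavl4 and Dmbx1, named below, also lie on chromosome 4. Whether the shared chromosome plays a part in the value of any of these genes was not tested.

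**Figure D2:**
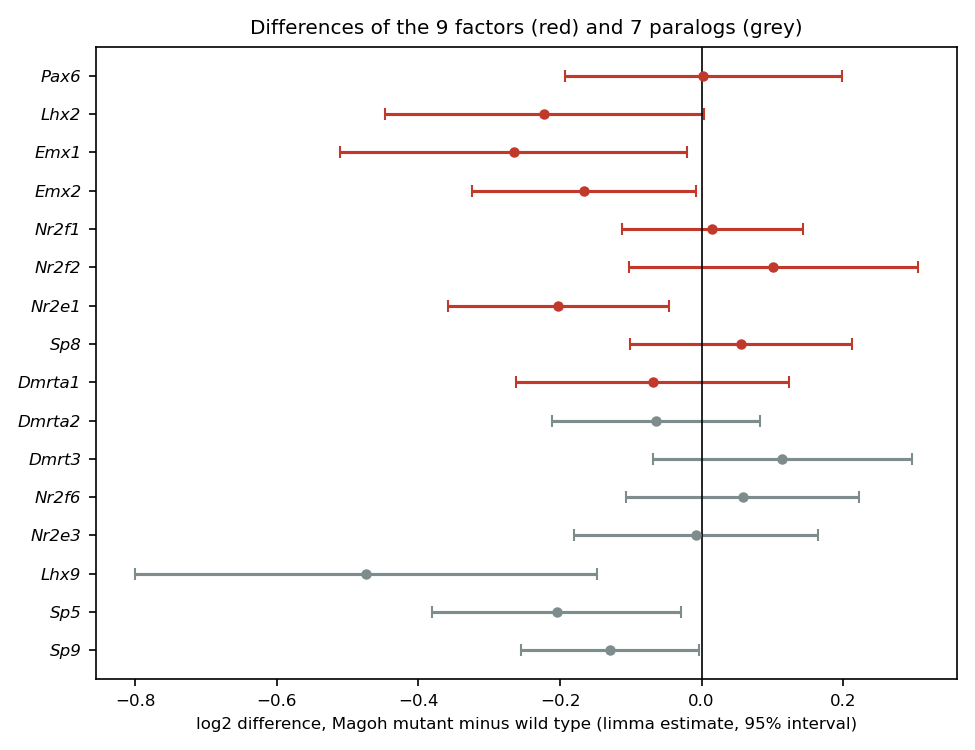
Log2 difference, Magoh mutant minus wild type, with its 95% interval from limma for the 9 factors (red) and 7 paralogs (grey). The estimates of Emx1, Lhx2, Nr2e1 and Emx2 lie between -0.27 and -0.17, those of the other 5 factors between -0.07 and 0.10, and no gene shown passed after adjustment over all genes.

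Array by array, Lhx2, Emx1, Emx2 and Nr2e1, the 4 factors with the lowest differences, were low on mutant arrays 2, 3 and 4. Relative to the wild-type mean, mutant arrays 2, 3 and 4 read -0.31, -0.47 and -0.41 for Lhx2, and -0.36, -0.47 and -0.46 for Emx1. On mutant array 1, Lhx2 was at 0.20 and Nr2e1 at -0.0023, and on mutant array 5 Emx1 was at 0.15 while Nr2e1 was at -0.39 and Pax6 at -0.31. Low values on arrays 2, 3 and 4 were not particular to these factors. Of the lists given below, progenitor markers averaged -0.17, -0.20 and -0.14 there, against -0.0035 and -0.10 on arrays 1 and 5. Other forebrain field factors averaged -0.12, -0.14 and -0.13, against 0.17 and -0.04. Red cell markers went the other way, at 0.22, 0.52 and 0.31, against -0.06 and 0.43. With arrays 1 and 5 both left out, an alternative chosen with earlier results of these data known, Lhx2 was called at -0.40 (limma, adjusted p = 0.00888) and Emx1 at -0.43 (limma, adjusted p = 0.0286). Emx2 at -0.26 and Nr2e1 at -0.20 were not called there (limma, adjusted p = 0.0643 and 0.0944). In that fit 2.46% of all genes were called, 1.22% lower and 1.24% higher. In another fit all arrays were kept with the array weights, which are estimated from these same values. Lhx2 alone of the 9 was called there, at -0.33 (limma, adjusted p = 0.0316). That fit called 2.0% of all genes, 1.14% lower and 0.858% higher. Mutant array 1, on which Lhx2 was highest, had the lowest weight, 0.254.

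**Figure D3:**
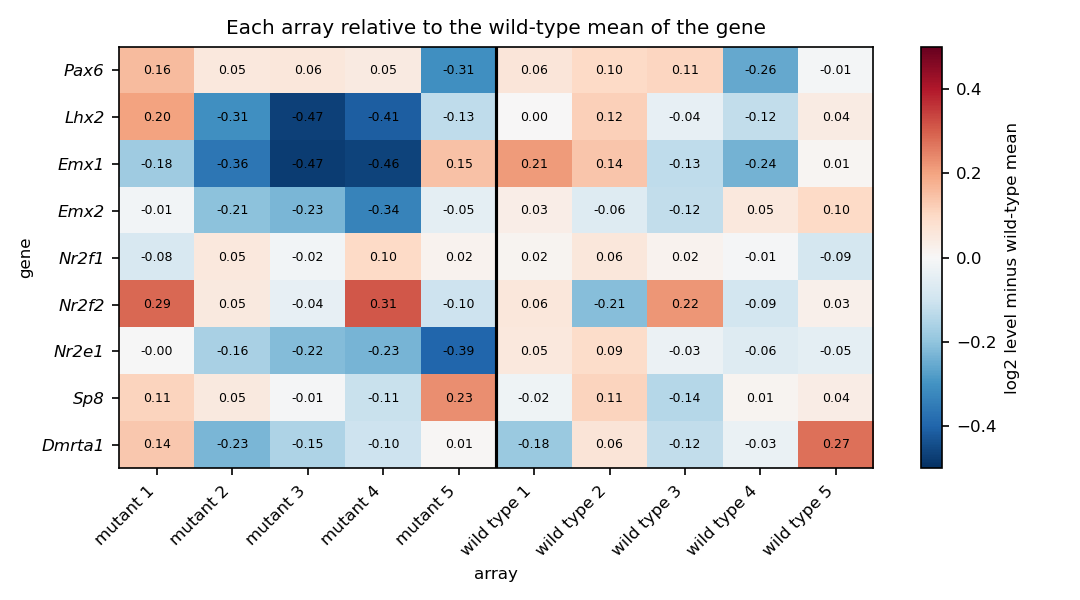
Log2 level of each factor (rows) on each array (columns) minus the wild-type mean of the gene, with Magoh mutant arrays on the left and wild-type arrays on the right. Mutant arrays 2, 3 and 4 are low for Lhx2, Emx1, Emx2 and Nr2e1, while mutant arrays 1 and 5 each depart from them.

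Pairs of factors with opposed gradients (Nr2f1 and Sp8, Emx2 and Pax6) and pairs of close relatives (Emx1 and Emx2, Nr2f1 and Nr2f2) were compared over the 10 arrays after the genotype means were removed, with exact permutation within genotype and Benjamini-Hochberg adjustment over the 4 pairs. Nr2f1 and Sp8 gave Pearson's r = -0.31 (exact permutation, two-sided p = 0.438, adjusted p = 0.584) and Spearman's rho = -0.35 (p = 0.387, adjusted p = 0.762). Emx2 and Pax6 gave r = -0.38 (exact permutation p = 0.358, adjusted p = 0.584) and rho = -0.22 (p = 0.571, adjusted p = 0.762). The paralogs Emx1 and Emx2 gave r = 0.55 (exact permutation p = 0.143, adjusted p = 0.571) and rho = 0.42 (p = 0.261, adjusted p = 0.762), and Nr2f1 and Nr2f2 gave r = -0.08 (exact permutation p = 0.833, adjusted p = 0.833) and rho = 0.04 (p = 0.922, adjusted p = 0.922). No pair passed. Without the 2 arrays farthest from the median of the first gene, r was -0.22, -0.75, 0.42 and 0.40 in the order given, so that of Nr2f1 and Nr2f2 changed sign. Of all 36 pairs of the 9 factors, 18 had a positive and 18 a negative r. The values ran from 0.80 for Pax6 and Nr2e1 to -0.76 for Emx2 and Nr2f1, both described above as caudal, and Emx2 and Sp8 gave 0.74.

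Over the same 10 genotype-centred values, the genes whose pattern was most like each factor were searched among the 5404 genes with a mean level of at least 8.57. These are the highest of many values from few arrays that share their RNA quality and dissection, and are given as a description. Lhx2 was followed most closely by Ccnd1, the gene of cyclin D1 (r = 0.95), and Notch1, a receptor that keeps progenitors undifferentiated (0.95). For Emx2 they were Efnb2, an ephrin gene (0.93), and Cmtm4 (0.91), and for Pax6 the adhesion gene Nectin3 (0.96) and Pgap1 (0.92). Nr2e1 was followed by Cers5 (0.93) and the histone gene H2aw (0.93), Emx1 by 1110065P20Rik and Prh1 (0.93 each). The pair for Nr2f1 was Pimreg (0.96) and Sugp1 (0.93), for Nr2f2 Epb41l5 (0.90) and Zfr (0.90), for Dmrta1 Chsy1 (0.96) and Skp2 (0.92), and for Sp8 Lrrc8a (0.89) and Mrpl12 (0.86).

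Of 7 close relatives of the 9, 0 passed in limma, and their median difference was -0.06. Lhx9, the LIM-homeodomain relative of Lhx2, had the lowest difference of the 7. Its level was 6.24 ± 0.40 in mutants and 6.72 ± 0.21 in wild type, a difference of -0.47 (interval -0.80 to -0.15; limma, adjusted p = 0.251). The zinc finger genes Sp5 and Sp9, relatives of Sp8, differed by -0.20 and -0.13 (limma, adjusted p = 0.429 and 0.524). All 3 lay below 8.57 in both genotypes, and all 3 had an unadjusted p under 0.05. The DM-domain genes Dmrta2 and Dmrt3, which act with Emx2 in the medial cortex of the mouse, differed by -0.06 and 0.11 (limma, adjusted p = 0.854 and 0.768). The nuclear receptor genes Nr2f6 and Nr2e3 differed by 0.06 and -0.01 (limma, adjusted p = 0.887 and 0.990). Both changed sign under another setting. Nr2e3, at 5.76 ± 0.19 in mutants and 5.77 ± 0.01 in wild type, was as dim as the negative controls, whose medians were 5.34 to 5.82. Lhx9 and Sp5 were called with mutant arrays 1 and 5 both left out.

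The signals and partners that place the 9 factors in the cortex were likewise not called. Of 25 other factors of the forebrain field, 5 of them among those relatives, limma called 0 in either direction, with 1 higher and 6 lower before adjustment and a median of -0.06. Etv5, an ETS factor induced by FGF, was 9.01 ± 0.16 in mutants and 8.72 ± 0.12 in wild type without overlap, a difference of 0.29 (limma, adjusted p = 0.186). Nfia, a factor of later gliogenesis, differed by -0.33 (limma, adjusted p = 0.214), below 8.57 in both genotypes. Of 11 FGF signalling genes, 0 passed in limma (0 higher and 2 lower before adjustment, median 0.03). The list joins FGF ligands, among them Fgf8 of the rostral centre next to Sp8 tissue, with receptor and response genes that are not limited to that centre. Fgf8, named outside the rule, differed by 0.10 (limma, adjusted p = 0.817). The 2 lower genes were the receptor genes Fgfr3 and Fgfr2, at -0.36 and -0.23 (limma, adjusted p = 0.119 and 0.246). Of 18 genes of the cortical hem, the WNT and BMP source medial to Emx2 tissue, 0 passed in limma (1 higher and 2 lower before adjustment, median -0.01). Msx2, a BMP-induced homeobox gene, had the smallest p there, at 7.54 ± 0.20 in mutants and 7.97 ± 0.17 in wild type (difference -0.43; limma, adjusted p = 0.0686), and the BMP gene Bmp5 differed by 0.32 (limma, adjusted p = 0.171). Of 6 antihem genes, 0 passed in limma (1 higher and 0 lower before adjustment, median -0.11). Sfrp2, a secreted WNT inhibitor of the antihem whose expression needs Pax6 in mouse, was 10.16 ± 0.22 in mutants and 9.88 ± 0.07 in wild type, a difference of 0.28 (interval 0.09 to 0.48; limma, adjusted p = 0.244). Fgf7 differed by -0.15 (limma, adjusted p = 0.736) at levels below the medians of the negative controls. Msx2 and Bmp5 lay below 8.57 in both genotypes and Fgfr3 in mutants, so the size of their differences is approximate. Below 8.57 lay 12 of the 25 forebrain field, 3 of the 11 FGF, 12 of the 18 hem and 5 of the 6 antihem genes.

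Of 10 genes described in mouse as downstream of the factors, a list drawn up with earlier results of these data known and so no independent evidence, limma called 2 higher and 3 lower and left 5 uncalled, where 0.573% of all genes were called. Of those tied to Pax6, Fabp7, the lipid-binding protein of radial glia, read 7.55 to 7.79 with a median of 7.77 in mutants, against 8.23 to 8.87 with a median of 8.64 in wild type. The groups did not overlap, and the difference was -0.92 (interval -1.14 to -0.69; limma, adjusted p = 0.000458). Eomes, a transcription factor of intermediate progenitors, was 7.05 ± 0.23 in mutants and 7.84 ± 0.22 in wild type, a difference of -0.80 (limma, adjusted p = 0.00284). Neurog2, a proneural factor that starts neuron formation, was 7.18 ± 0.13 in mutants and 7.63 ± 0.17 in wild type (difference -0.44; limma, adjusted p = 0.0254). It is named because it completes the 5 called genes, after its values were seen, and its call was lost without any 1 of 5 arrays (wild-type 2, 3 or 5, mutant 2 or 3; limma, adjusted p up to 0.0891). Cdk6, a cell cycle kinase that Pax6 holds down in mouse cortex, was 9.53 ± 0.21 in mutants and 8.97 ± 0.15 in wild type and rose by 0.56 (limma, adjusted p = 0.0130). Leaving out wild-type array 1 or 2 ended that call (limma, adjusted p up to 0.0563). Without wild-type array 2 the list had 3 calls, those of Cdkn1a, Fabp7 and Eomes, and it had the same 3 with the replicate number as a block.

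Cdkn1a (p21), a cell cycle inhibitor that Nr2e1 represses in neural stem cells and that p53 also activates, was 8.39 ± 0.34 in mutants and 6.76 ± 0.10 in wild type, a rise of 1.63 (limma, adjusted p = 5.5e-06). Fgf8, tied to Sp8 and Emx2, is given above, and Wnt1, tied to Emx2, differed by 0.07 at levels below the medians of the negative controls (limma, adjusted p = 0.854). Gsx2, a ventral factor that Pax6 keeps out of the cortex, was 6.73 ± 0.33 in mutants and 7.10 ± 0.17 in wild type, a difference of -0.36 (limma, adjusted p = 0.334). Wnt1, Gsx2 and Fgf8 are named outside the rule. Fabp7, Eomes, Neurog2, Cdkn1a and Gsx2 had at least 1 genotype mean below 8.57, so the size of their differences is approximate.

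**Figure D4:**
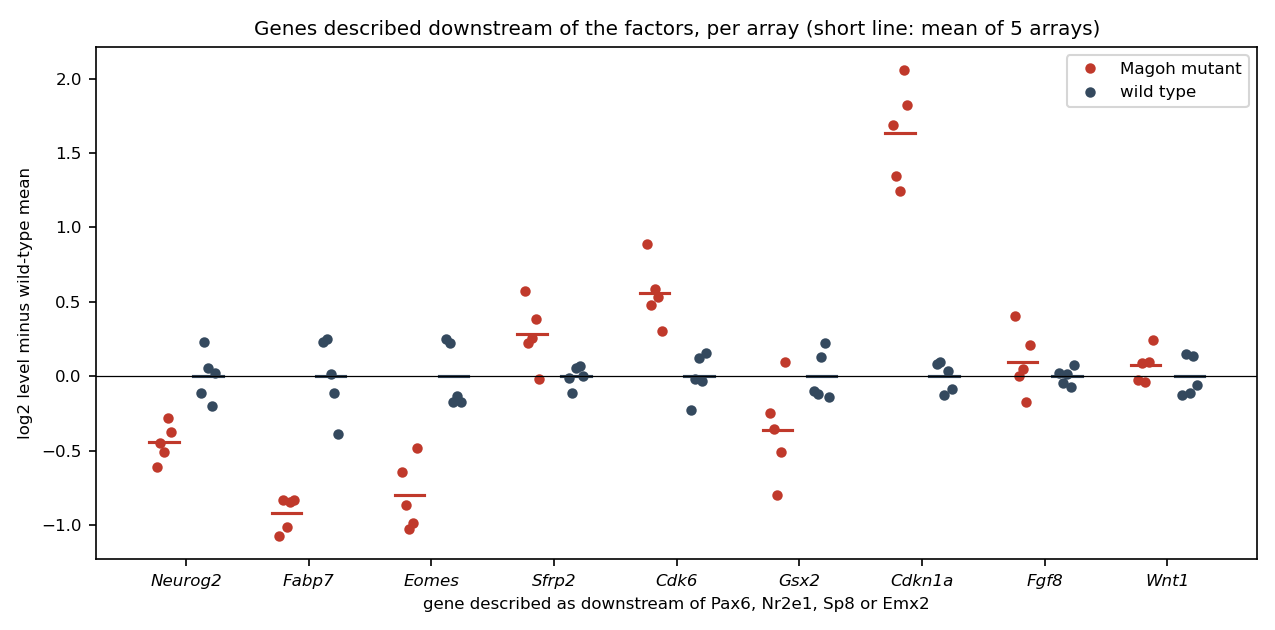
Log2 level minus the wild-type mean for 9 of the 10 genes described as downstream of the factors, per array, Magoh mutant left of wild type, with a short line at each mean (n = 5). Fabp7, Eomes, Neurog2, Cdk6 and Cdkn1a do not overlap between the genotypes, while Sfrp2, Gsx2, Fgf8 and Wnt1 do.

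Markers of cells in the dissection give the setting of these values. Of 12 markers of progenitors, the cells known to express the 9 factors, 0 passed in limma (0 higher and 4 lower before adjustment), with a median of -0.13 and list means of -0.20 to -0.0035 in mutants and -0.07 to 0.03 in wild type. The Notch target Hes5 differed by -0.28 without overlap between the genotypes (limma, adjusted p = 0.0757), and the intermediate filament gene Nes by -0.28 (limma, adjusted p = 0.147). Of 25 young neuron markers, 19 lay below 8.57. Their median was -0.29, with list means of -0.53 to -0.15 in mutants and -0.08 to 0.16 in wild type. In limma 0 rose and 9 fell (0 higher and 18 lower before adjustment). Those that fell included Tubb3, a neuronal tubulin (-0.61), Map2, a dendrite protein gene (-0.53), the glutamate transporter gene Slc17a6 (-0.97) and the RNA-binding protein gene Elavl4 (-0.52), with limma adjusted p of 0.00146, 0.00226, 0.00399 and 0.00804. Slc17a6 and Elavl4 lay below 8.57 in both genotypes, so the size of their differences is approximate. The count of neuron calls was 5 without any 1 of wild-type arrays 1 to 5 or mutant arrays 2, 3 and 4. Of 20 ventral telencephalon markers, 18 lay below 8.57 and 1 fell in limma (0 higher and 9 lower before adjustment). The 1 that fell was Dlx1 (-0.63; limma, adjusted p = 0.0195), not called without wild-type array 1 or 2. The list means ran over -0.32 to -0.04 in mutants and -0.06 to 0.05 in wild type. Lhx8 in that list differed by -0.44 (limma, adjusted p = 0.0823). Dlx1 and Lhx8 lay below 8.57 in both genotypes, so the size of their differences is approximate. With mutant array 5 left out the ventral count was 3.

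Tissue next to the cortex, where some of the 9 factors are also expressed, showed no called gene. Of 17 markers of diencephalon, eye and midbrain, 16 lay below 8.57, and 0 passed in limma (1 higher before adjustment), with list means of -0.05 to 0.18 in mutants and -0.07 to 0.07 in wild type. Dmbx1 and the eye field gene Rax differed by 0.19 and 0.30 (limma, adjusted p = 0.513 and 0.543). Of 21 mesenchyme markers, a tissue where Nr2f1 and Nr2f2 are also known, 10 lay below 8.57 and 0 passed in limma (1 higher and 3 lower before adjustment), with list means of -0.21 to 0.07 in mutants and -0.05 to 0.10 in wild type. Col3a1, a fibrillar collagen gene, was 9.79 ± 0.26 in mutants and 10.09 ± 0.03 in wild type, and Lum differed by -0.39 (limma, adjusted p = 0.274 and 0.106). Of 17 endothelial markers 15, and of 14 surface ectoderm and placode markers 9, lay below 8.57, and 0 of either passed in limma (3 and 1 higher before adjustment). The endothelial list means ran over 0.02 to 0.17 in mutants and -0.09 to 0.10 in wild type, with Flt1 and Cdh5 at 0.20 each. The ectoderm list means ran over 0.03 to 0.21 in mutants and -0.08 to 0.24 in wild type, with Grhl2 at 0.17 and Cldn7 at 0.16. All 15 macrophage markers lay below 8.57 and 0 passed in limma (5 lower before adjustment), with list means of -0.22 to -0.05 in mutants and -0.07 to 0.06 in wild type and Lyz2 and Csf1r at -0.44 and -0.25. Red cell markers (15 measured, 9 below 8.57) had 0 calls in limma but 11 higher before adjustment, with list means of -0.06 to 0.52 in mutants and -0.12 to 0.15 in wild type, and Slc4a1 and Gata1 at 0.44 and 0.25 (limma, adjusted p = 0.0740 and 0.171). The part of these lists in the values of the 9 factors was not tested.

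**Figure D5:**
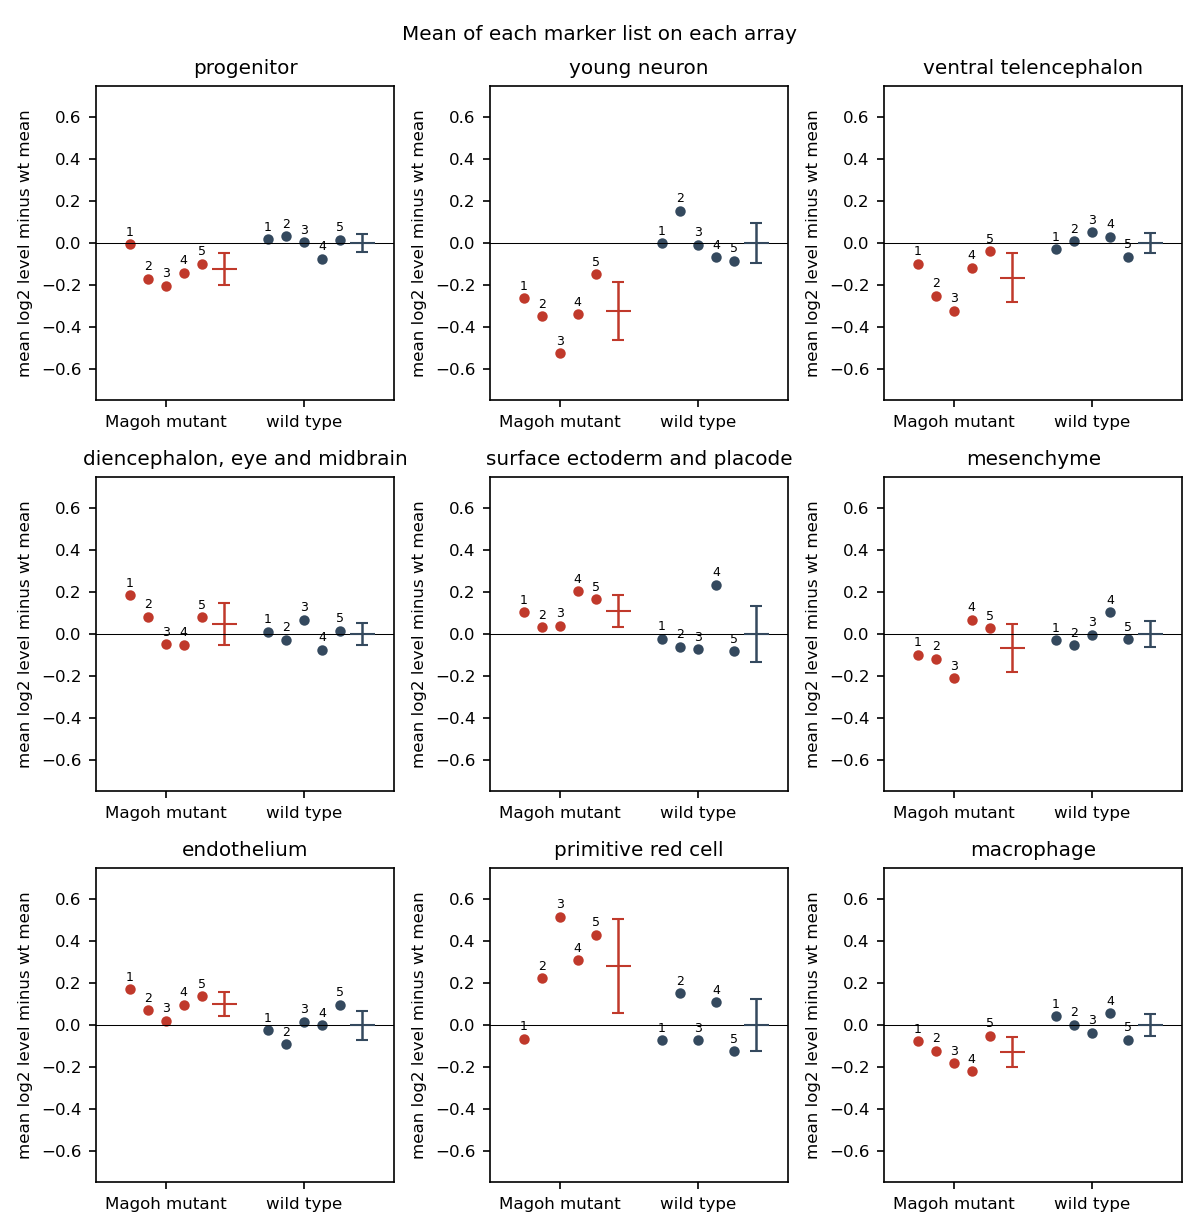
Mean log2 level of each marker list on each array minus its wild-type mean, Magoh mutant left and wild type right, with array numbers and the mean ± SD (n = 5). The young neuron mean is lower on all 5 mutant arrays than on any wild-type array, and the red cell mean is highest on mutant array 3.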

How the data were processed

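Cortex RNA of 5 Magoh mutant and 5 wild-type embryos was measured on 1 array each. Per the submitters' processing notes, the authors used RMA and Affymetrix Expression Console for the deposited log2 levels (versions: not given in the sources used here). That method subtracts background and puts arrays on a common distribution, so an array-wide shift is lost and folds tend to shrink. Other deposited text columns (accession, gene number, title) named the probe sets. Of a deposited annotation table, 10 value columns had names that match no label and were not used.

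Of 35557 probe sets, 6546 were controls. By gene number 23322 matched the RefSeq table of GRCm38.p6, and 465 more by accession. Per gene the brightest probe set by mean over the 10 arrays was kept, which left 20405 genes, without a filter on dim ones. Mutant minus wild type was fitted with limma 3.58.1 in R 4.3.3 (lmFit, eBayes), with Benjamini-Hochberg adjustment over all genes and a threshold of 0.05. The fit was tested on simulated data. The number of arrays limits the precision. Negative controls had a mean 95th percentile of 8.57, and 73.5% of genes lay below it.

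The factors and gene lists were chosen with earlier results of these data known. Named were the factors, their paralogs and Magoh, and of each other list up to 4 called genes and in any case the 2 with the smallest p. Exceptions are said to be so. For each factor the 2 most alike genes are given. The alternatives were centring on array medians, quantile normalization, 2 limits on dim genes, every probe set, trend and robust variance, array weights, a replicate block, other thresholds, another probe set and leaving out arrays.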

Additional observations from a re-analysis of the deposited data

Results flagged for a closer look

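Among 138 groups of 5 arrays (the named genes and the list means in each genotype), 7 had an array whose gap to its neighbour exceeded 0.710 of the range of the group, and chance gives about 7. Pax6 was one of them, with mutant array 5 at 9.05 below the other mutant arrays. Cdh5 on mutant array 1 stood at 8.87 above the other mutants. Nr2e3 on wild-type array 4 stood at 5.75, below the other wild-type arrays. The list means set apart were the antihem on mutant array 1 at 0.18, the forebrain field factors on wild-type array 2 at 0.076, the progenitor markers on wild-type array 4 at -0.073 and the surface ectoderm and placode markers on wild-type array 4 at 0.24. Wild-type array 4 was also the wild-type array with the lowest Pax6.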

How the results depend on the processing

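No factor was called in the fits with quantile normalization, median centring, either dim limit, every probe set, trend and robust variance or the replicate block, or without any 1 array. The dim limit at 8.57 removed Emx1, Emx2, Sp8 and Dmrta1. Of 168 comparisons of the factors with an alternative, 153 kept sign and side of the threshold, 3 became calls (given above) and 12 changed sign. Pax6 turned to -0.011 with quantile normalization and -0.00084 with array weights, and ran from -0.062 (without wild-type array 4) to 0.079 (without mutant array 5) with 1 array left out, where 6 of 10 values were below 0. Nr2f1 ran from -0.0066 to 0.039 with 1 array left out and was -0.086 with the other probe set. Without mutant arrays 1 and 5, Sp8 turned to -0.023, Nr2f6 to -0.030, Nr2e3 to 0.019 and Fgf8 to -0.038. With 1 array left out Nr2f6 ran from -0.0035 to 0.10 and Nr2e3 from -0.052 to 0.049, and Nr2e3 was 0.00041 with centring and 0.046 with array weights. Without centring, Emx1 and Emx2 correlated at 0.71 (random permutation over all 10 arrays regardless of genotype, p = 0.0248, not adjusted over the 4 pairs). Both genes had lower mutant means, so that value includes the difference between genotypes. Without 2 arrays, centred values of Nr2f1 and Nr2f2 correlated at 0.40.

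With mutant arrays 1 and 5 both left out, the counts of calls were 2 of the factors, 2 paralogs, 6 forebrain field, 3 hem, 1 antihem, 4 progenitor, 6 ventral, 3 red cell and 1 macrophage gene, 13 neuron genes (all lower), 3 described targets higher and 4 lower, and 502 over all genes. With array weights they were 1 factor, 1 paralog, 2 forebrain field, 1 FGF signalling, 3 hem and 2 progenitor genes. The same fit called 7 ventral, 1 mesenchyme and 5 red cell genes, and 408 over all genes. With genes below 8.57 left out there were 72 over all genes, 1 described target, 1 progenitor, 4 neuron and 0 ventral genes, with fewer genes tested. At an adjusted p under 0.1 there were 224 over all genes, 1 hem, 1 progenitor, 2 ventral and 1 red cell gene, and under 0.01 there were 58 over all genes, 3 described targets, 5 neuron and 0 ventral genes. Testing every probe set gave 5 neuron genes. With 1 array left out, counts ran over 64 to 185 for all genes (66, 64 and 71 without wild-type arrays 1, 2 and 3, and 185 without mutant array 1), 3 to 5 for described targets, 5 to 9 for neurons, 0 to 3 for ventral, 0 to 4 for red cell, 0 to 2 for progenitor and 0 to 1 for paralog, forebrain field, hem and mesenchyme genes. The cause was not tested. With genotype means removed, same-numbered arrays correlated at 0.01, -0.07, 0.17, 0.36 and 0.06. For numbers 3 and 4 that was above the highest value with any other number (0.06 and -0.02). For numbers 1, 2 and 5 it was below it (0.14, 0.18 and 0.14). The labels call the numbers only biological replicates, so they were not taken as pairs. The replicate block gave 3 described targets, 5 neuron genes and 83 over all genes.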
